A study of Mus musculus with 24 samples.

Results

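Livers of 4 Ercc1 mutant mice on dietary restriction were compared with livers of 4 wild-type mice fed without limit, all male and 16 weeks old. These 8 of the 24 ribosome profiling libraries of the series were chosen by their labels, which give genotype, diet and age. The restricted mutants were Ercc1 Δ/− on 30% dietary restriction, begun at 7 weeks of age and complete from 9 weeks. The fed wild types were Ercc1 +/+ and fed ad libitum. Fed Ercc1 Δ/− mutants and restricted Ercc1 +/+ wild types, 4 of each and also 16 weeks old, are given beside them. All mice were F1 hybrids of C57BL6J and FVBN, were housed singly, ate the same synthetic pellets, and received no food before collection on the last day. The mutation is in every tissue and not in the liver alone. The comparison therefore changes genotype and diet together, and it shows which differences from the fed wild-type level are left in a mutant after restriction and which are not seen.

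Ercc1 pairs with Ercc4 (Xpf) to form an endonuclease that cuts damaged DNA in nucleotide excision repair and in the repair of crosslinks between strands. Mice with a null and a truncated copy repair DNA poorly, age early and live longer when food is restricted. The liver takes part in such a state through its hepatocytes, which make plasma proteins, bile acids and lipids and clear drugs and nitrogen, and through resident macrophages, the Kupffer cells. Ribosome profiling sequences the stretches of mRNA that ribosomes protect from nuclease, so a count reflects both how much of an mRNA is present and how heavily it is translated, and these were not separated here. In whole liver, fewer cells of a type and less RNA per cell cannot be told apart.

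The 8 libraries held 13366558 to 26075881 counts in 22429 genes, of which 12211 passed the filter on low counts. Levels are CPM, the count divided by the effective library size and multiplied by 1000000. Ercc1 had 13, 9, 13 and 4 raw counts in restricted mutants, against 59, 57, 48 and 38 in fed wild types. Every mutant library was below every wild-type library, and the log2 change was -2.57 ± 0.42 (SE, adjusted p = 5.91e-05), so the libraries went with their labels. Which part of the gene the Δ and null alleles leave is not resolved in a count per gene. Ercc4 itself stood at 7.16 ± 0.548 CPM in restricted mutants and 6.62 ± 0.931 CPM in fed wild types (SD, n = 4 each), and its change of 0.12 had an interval of -0.26 to 0.50.

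The first principal component of all 24 libraries, with 24.4% of the variance, ran from -48.3 to -36.6 in restricted mutants and from 13.5 to 19.2 in fed wild types. The second, with 17.4%, ran from 24.3 to 34.4 in restricted mutants and from -28.6 to -18.9 in fed wild types. Fed mutants lay with restricted mutants on the second component, at 26.6 to 33.2, and with fed wild types on the first, at 10.1 to 20.7. Restricted wild types lay with restricted mutants on the first, at -66.1 to -26.7, and with fed wild types on the second, at -34.4 to -26.6. The restricted mutants were thus apart from fed wild types on both components.

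**Figure D1:**
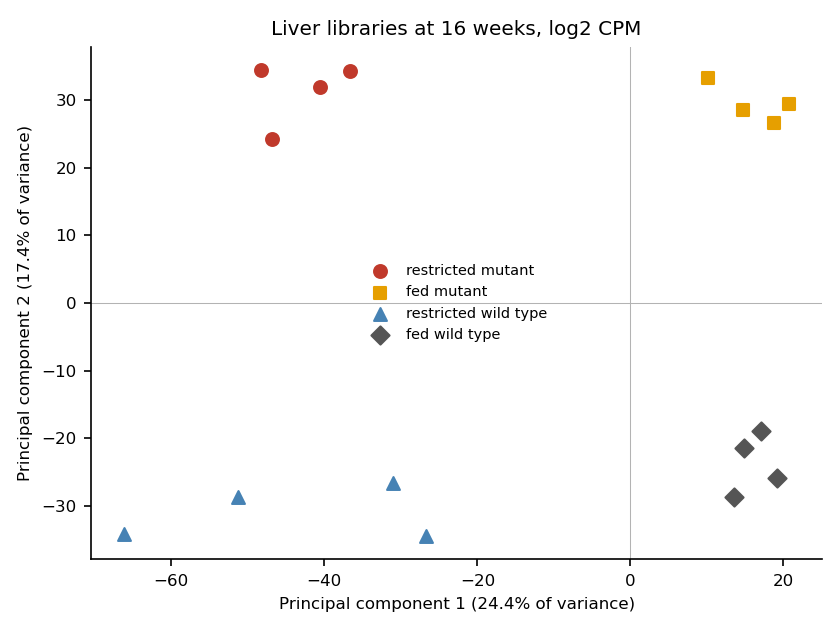
Principal components of log2 CPM, computed over all 24 libraries and drawn for the 4 groups aged 16 weeks, 1 point per library. Restricted mutants (red circles) lie left of fed mutants (orange squares) and fed wild types (grey diamonds) on component 1, and above both wild-type groups on component 2.

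Of the 12211 genes tested, 3462 differed between restricted mutants and fed wild types, which is 28.4%. Among them 1718 (14.1%) were higher and 1744 (14.3%) were lower in restricted mutants, and 860 (7.04%) of the higher and 666 (5.45%) of the lower differed by more than 2-fold. The libraries of the groups did not overlap for 3851 genes, 31.5%, with 15.4% all higher and 16.1% all lower in restricted mutants. The test was edgeR's quasi-likelihood F test with Benjamini-Hochberg adjustment over all genes and a threshold of 0.05, and adjusted p has that meaning throughout. Replicates are numbered livers of singly housed mice, and no 2 libraries were near copies. The spread behind the p-values was estimated within the 6 groups over all 24 libraries, not from the 8 compared alone. For 6593 genes (54.0%) the 95% interval of the difference lay wholly within 2-fold of the fed wild-type level. Fed mutants differed from the same fed wild types in 1310 genes, 10.7% (5.69% higher, 5.04% lower), and restricted wild types in 1483, 12.1% (5.44% higher, 6.71% lower). Restricted mutants differed from fed mutants in 1420 genes, 11.6%. With only the 8 libraries of a comparison in the fit, 2195 genes differed in fed mutants and 687 in restricted wild types, each against fed wild types. The same fits gave 3695 for restricted mutants against fed wild types and 1274 between the mutants. The fed mutant count was 813 without fed mutant replicate 1 and 861 without fed wild-type replicate 4, the restricted wild-type count 939 without restricted wild-type replicate 4, and the count between mutants 933 without restricted mutant replicate 1. These comparisons share libraries with the first, so their values are set side by side below and are not independent of each other. When libraries were scaled by their total counts, the median of all genes moved up by 0.17 on the log2 scale, and 2495 genes were higher and 960 lower in restricted mutants. List counts of 5 or fewer given below for restricted mutants against fed wild types moved by at most 2 genes when 1 of the 8 libraries was left out, and the counts of the other comparisons were not recomputed so.

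The genes that stood furthest from fed wild types in fed mutants were near the fed wild-type level in restricted mutants for some functions and far from it for others. They were chosen by their values in fed mutants, so those values are a description. The nearest to fed wild types were the Cyp2b family, cytochromes P450 that oxidize drugs and steroids and are controlled by the nuclear receptors CAR and PXR. Cyp2b9 had 226, 178, 344 and 295 CPM in restricted mutants, against 269, 199, 162 and 265 CPM in fed wild types. The ranges overlapped, and the log2 change was 0.22 ± 0.45 (SE, adjusted p = 0.747) with a 95% interval of -0.72 to 1.16. Fed mutants averaged 8.39 CPM, a log2 change of -4.74 ± 0.46 from the same wild types. Cyp2b10, the member most used as a readout of CAR, had 75.7, 38.8, 45.0 and 42.2 CPM in restricted mutants and 41.4, 51.6, 30.1 and 74.4 CPM in fed wild types. Its change was 0.034 (interval -0.72 to 0.78), against -5.31 in fed mutants. Cyp2b13, Cyp2b19 and Cyp2b23 had changes of 0.41, 0.22 and -0.056 in restricted mutants and of -5.01, -3.78 and -3.99 in fed mutants. Without fed mutant replicate 3 the fed mutant changes of Cyp2b10 and Cyp2b19 were -6.02 and -4.94. None of the 5 passed the test in restricted mutants, and the intervals of Cyp2b10, Cyp2b19 and Cyp2b23 lay within 2-fold. Restriction also raised all 5 in wild types, by 1.45 to 1.89 on the log2 scale, and restricted wild types averaged 611 CPM for Cyp2b9. The members of this family are close in sequence, and how reads that fit several were counted is not given in the sources used here, so single members are uncertain.

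Vldlr, the receptor that takes up very low density lipoprotein, had 4.02, 3.07, 3.47 and 2.01 CPM in restricted mutants, against 5.36, 2.94, 3.80 and 5.63 CPM in fed wild types. The groups overlapped, with a change of -0.48 ± 0.37 (SE, adjusted p = 0.352) that compares with -3.83 in fed mutants, whose mean was 0.302 CPM. Gulo, the last enzyme of vitamin C synthesis, had a mean of 432 ± 53.5 CPM in restricted mutants and 323 ± 65.0 CPM in fed wild types (SD, n = 4 each), with 881 CPM in fed mutants. Its change was 0.42 (adjusted p = 0.0526), within 2-fold, and it passed without restricted mutant replicate 1 (0.49, adjusted p = 0.0412) or fed wild-type replicate 2 (0.54, adjusted p = 0.0252). It also passed with RLE size factors, total counts, the 1 CPM filter and DESeq2, so its level in restricted mutants is not shown to be that of fed wild types. The immunoproteasome subunit Psmb8 and the mannose-binding lectin Mbl2 were also within 2-fold in restricted mutants, at 0.13 (interval -0.17 to 0.44) and -0.11 (interval -0.50 to 0.28). Both had risen in fed mutants, by 1.01 and 1.12. Ndufb8 and Ndufb9, subunits of respiratory complex I, were at -0.025 and 0.068 in restricted mutants, against -0.41 and -0.42 in fed mutants, calls lost in 6 and 3 of the 8 fits that left out a library.

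**Figure D2:**
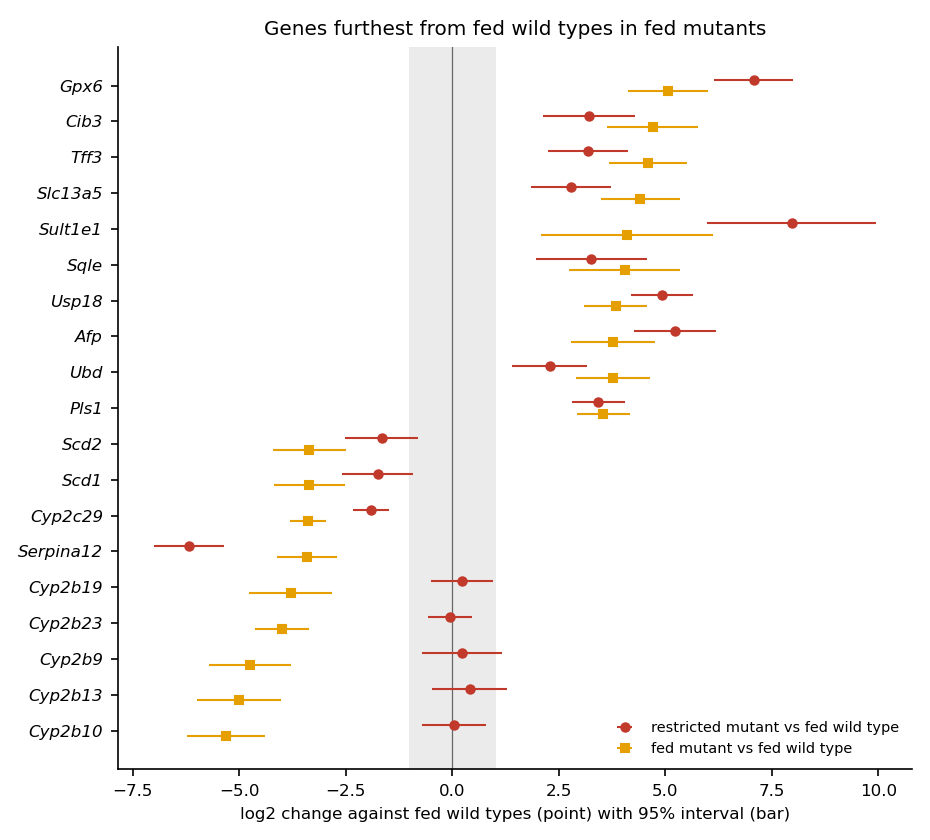
Log2 change against fed wild types, with 95% intervals, for 19 genes among those furthest from fed wild types in fed mutants. Red circles are restricted mutants, orange squares fed mutants, and the grey band marks 2-fold. The 5 Cyp2b genes were not called in restricted mutants; Serpina12, Gpx6, Usp18, Afp and Pls1 were.

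Cholesterol synthesis runs through the mevalonate pathway, driven by SREBP2. Of its 25 genes tested, 2 rose and 1 fell in restricted mutants, where 14.1% and 14.3% of all genes did. The list's median log2 change was 0.28 against 0.0082 over all genes, and 10 genes had an interval within 2-fold. With only the 8 libraries in the fit 6 rose, Msmo1 among them. In fed mutants 9 of the 25 rose and none fell, with a median of 0.83, and in restricted wild types 8 rose and 1 fell. Msmo1, a sterol methyl oxidase of the later steps, had 26.4, 32.8, 49.5 and 36.5 CPM in restricted mutants, against 23.1, 20.8, 28.6 and 17.3 CPM in fed wild types. The groups overlapped, and the change of 0.69 ± 0.38 (SE, adjusted p = 0.181) stood beside 1.95 in fed mutants. Sqle, squalene epoxidase, stayed up by 3.27 ± 0.62 (SE, adjusted p = 0.00102), beside 4.05 in fed mutants and 3.18 in restricted wild types.

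Among p53 targets, genes that respond to DNA damage, 4 of the 25 tested rose and 2 fell in restricted mutants, a share near that of all genes. In fed mutants 9 rose and 1 fell. Phlda3, an inhibitor of Akt signalling, had 1.04, 2.46, 1.02 and 0.694 CPM in restricted mutants and 0.901, 0.306, 0.440 and 0.496 CPM in fed wild types. The groups overlapped, and the change of 1.24 (adjusted p = 0.125) had an interval of -0.020 to 2.50. Eda2r, a receptor of the tumour necrosis factor family, was at -0.30 in restricted mutants (adjusted p = 0.764) and 2.09 in fed mutants. The fed mutant value was 1.17 without fed mutant replicate 1 (adjusted p = 0.275), and its call was lost in 4 of the 8 fits that left out a library and with only the 8 libraries compared. Cdkn1a, which encodes the cell cycle inhibitor p21, had 47.1, 91.1, 17.9 and 14.6 CPM in restricted mutants and 17.5, 40.3, 14.2 and 26.7 CPM in fed wild types, and was not called in either comparison (adjusted p = 0.399 in restricted mutants). Replicates 1 and 2 of the restricted mutants were higher than replicates 3 and 4 for Cdkn1a and for Sesn1, a stress-induced regulator of mTORC1, which had 22.8, 22.8, 4.56 and 3.61 CPM. The rise of Ddb2, a damage sensor of excision repair, rested on replicate 1: it had 12.1, 2.27, 2.14 and 2.22 CPM in restricted mutants and 2.66, 1.29, 1.88 and 1.08 CPM in fed wild types. Without that library the adjusted p was 0.44, and the change was 0.33 instead of 1.40, and without fed wild-type replicate 2 the adjusted p was 0.0514. Perp, a membrane protein also listed among p53 targets, fell by 1.16 (adjusted p = 2.75e-06), beside -0.89 in fed mutants (adjusted p = 0.0002).

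The interferon response stayed high. Type I interferons act through receptor kinases and a complex of transcription factors that binds a short element in the promoters of antiviral genes. Of the 41 genes listed for this response, all tested, 25 rose and none fell in restricted mutants, against 14.1% higher and 14.3% lower over all genes, and the list median was 0.93. Fed mutants had 23 higher and none lower, with a median of 1.17, and restricted wild types 1 higher and 3 lower. Usp18, a protease that removes ISG15 and limits interferon signalling, had 28.4, 35.6, 24.5 and 18.1 CPM in restricted mutants, against 0.705, 0.919, 1.04 and 0.827 CPM in fed wild types. No libraries overlapped, and the log2 change was 4.92 ± 0.35 (SE, adjusted p = 4.91e-10), beside 3.83 in fed mutants. Between the mutants the difference was 1.09 (adjusted p = 0.0139), with restricted mutants above fed ones, a call lost in 2 of the 8 fits that left out a library (adjusted p up to 0.059).

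Oas1a makes the oligoadenylates that switch on RNase L, and it had 6.99, 8.79, 7.38 and 8.54 CPM in restricted mutants, against 2.31, 1.65, 1.88 and 0.993 CPM in fed wild types. All 4 restricted mutants were higher, by 2.17 ± 0.27 on the log2 scale (SE, adjusted p = 2.51e-06). Ifi44 rose by 2.43, Ifi27l2a by 2.56 and Ifi27 by 0.89, all with no overlap between the groups, and the same genes were at 2.33, 2.84 and 1.17 in fed mutants. Restricted mutants and fed mutants were not shown to differ for any of the 3 (adjusted p 0.878, 0.69 and 0.199). The summed level of the 41 genes was not high in every library. It was 559, 799, 1099 and 915 CPM in restricted mutants and 555, 573, 563 and 532 CPM in fed wild types, so replicate 1 of the restricted mutants lay within the wild-type range. The count of genes that rose was 17 without restricted mutant replicate 3 and 29 at most when another library was left out.

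The promoters of 4 of these genes are shown because they carry the interferon element in the letters searched here, GAAA and GAAA with any 2 bases between them. Each is the 250 bases before the annotated start in RefSeq's GRCm38.p6 annotation, written 5′ to 3′ along the gene, with matches on either strand in capitals.
Oas1a, chr5:120907526-120907775, minus strand: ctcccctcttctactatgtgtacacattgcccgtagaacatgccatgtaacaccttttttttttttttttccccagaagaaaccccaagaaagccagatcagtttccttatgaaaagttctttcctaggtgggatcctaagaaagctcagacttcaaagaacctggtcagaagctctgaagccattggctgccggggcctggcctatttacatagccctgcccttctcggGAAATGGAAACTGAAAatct
Oas1g, chr5:120887614-120887863, minus strand: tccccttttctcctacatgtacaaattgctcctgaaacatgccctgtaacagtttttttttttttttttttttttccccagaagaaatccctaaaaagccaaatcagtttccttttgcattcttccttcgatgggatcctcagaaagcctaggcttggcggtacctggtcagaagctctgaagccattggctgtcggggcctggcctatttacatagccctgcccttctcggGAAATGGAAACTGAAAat
Oas3, chr5:120777660-120777909, minus strand: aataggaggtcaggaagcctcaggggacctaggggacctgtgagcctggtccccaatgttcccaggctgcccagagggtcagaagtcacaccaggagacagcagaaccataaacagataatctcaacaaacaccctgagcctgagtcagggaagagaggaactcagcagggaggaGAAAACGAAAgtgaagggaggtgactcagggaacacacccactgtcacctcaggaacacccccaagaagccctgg
Rsad2, chr12:26456453-26456702, minus strand: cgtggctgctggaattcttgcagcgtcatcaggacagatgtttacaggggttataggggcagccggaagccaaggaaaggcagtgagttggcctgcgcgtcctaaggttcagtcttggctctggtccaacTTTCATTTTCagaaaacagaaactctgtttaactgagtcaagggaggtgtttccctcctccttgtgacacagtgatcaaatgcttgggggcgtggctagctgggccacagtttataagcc
They are the 4 genes with the smallest adjusted p among the listed genes that rose and hold a match, a choice made after their values were seen. They rose by 2.17, 1.92, 2.50 and 1.91 on the log2 scale in the order printed. In Oas1a the matches began 20 and 14 bases before the start, and in Oas1g 18 and 12 bases before it, overlapping in both. Oas3 had 1 match 75 bases before the start, and Rsad2 had 1 at 120, read on the other strand. Of the 41 genes, 29 have a promoter in the table used, and 16 of these hold the motif, against 3.46% of 27025 gene symbols. Of the 16 with a match 11 rose, and of the 13 without one in this window 9 rose. A match is a run of letters and not a measured binding site.

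Kupffer cell markers were high in restricted mutants too. Of 19 macrophage markers, 16 rose and none fell in restricted mutants, with a median of 0.98, and the count was 15 to 17 whichever library was left out. Fed mutants also had 16 higher and none lower, with a median of 1.02. Cd5l, a secreted protein of Kupffer cells, had 62.9, 83.8, 80.2 and 86.1 CPM in restricted mutants, against 31.1, 34.4, 36.7 and 30.5 CPM in fed wild types. All restricted mutants were higher, with a log2 change of 1.24 ± 0.18 (SE, adjusted p = 1.93e-05). Clec4f, a lectin found on Kupffer cells, rose by 0.96 ± 0.15, and Marco, a scavenger receptor, by 3.81 ± 0.57 (adjusted p = 3.98e-05 and 3.51e-05). The summed level was 636, 801, 663 and 644 CPM in restricted mutants and 305, 361, 370.0 and 357 CPM in fed wild types. Restricted wild types lay between, at 382 to 588 CPM, and fed mutants at 599 to 796 CPM.

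Several single genes of mutants moved no nearer to the fed wild-type level, or went further from it. Gpx6, a glutathione peroxidase, had 27.4, 35.1, 31.9 and 29.8 CPM in restricted mutants, against 0.470, 0.123, 0.120 and 0.0827 CPM in fed wild types. Its log2 change was 7.08 ± 0.45 (SE, adjusted p = 1.31e-12), beside 5.07 in fed mutants, and the mutants differed from each other by 2.01 (adjusted p = 1.23e-05). Because 1 of the fed wild types held most of that group's few counts, the change without fed wild-type replicate 1 was 8.03, beside 6.02 in fed mutants. Afp, the fetal counterpart of albumin, had 11.1, 24.1, 16.7 and 27.8 CPM in restricted mutants and 0.548, 0.735, 0.200 and 0.745 CPM in fed wild types, a change of 5.23 beside 3.77 in fed mutants. Pls1, an actin-bundling protein of epithelia, was up by 3.43 and 3.54, and restricted and fed mutants were not shown to differ (adjusted p = 0.859; interval -0.69 to 0.47).

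Serpina12, which encodes the adipokine vaspin, had 1.42, 0.378, 0.885 and 1.87 CPM in restricted mutants, against 88.4, 75.4, 92.7 and 62.1 CPM in fed wild types. No libraries overlapped, and the change was -6.18 ± 0.40 (SE, adjusted p = 1.96e-09), beside -3.41 in fed mutants and -2.79 in restricted wild types. Fgf21, a fasting hormone of the liver, was also below wild type, with a log2 change of -2.24 ± 0.53 (SE, adjusted p = 0.00235), at 8, 20, 16 and 0 raw counts in restricted mutants and 50, 39, 82 and 20 in fed wild types. In fed mutants its change was -1.85 (adjusted p = 0.0205), a call lost in 3 of the 8 fits that left out a library.

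Fatty acid synthesis genes were low in restricted mutants. Of 25 genes of fatty acid synthesis 14 fell and none rose, with a median of -0.73, against 8 lower and none higher in fed mutants. Elovl5, which elongates polyunsaturated fatty acids, had 202, 235, 187 and 190.5 CPM in restricted mutants, against 576, 408, 564 and 425 CPM in fed wild types. The groups did not overlap, and the change of -1.28 ± 0.23 (SE, adjusted p = 0.000243) stood beside -1.52 in fed mutants. Me1, which supplies NADPH for synthesis, and Dgat2, which makes triglycerides, were at -1.73 and -1.04 in restricted mutants and -1.72 and -0.63 in fed mutants.

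The stearoyl-CoA desaturase Scd1 lay between fed mutants and fed wild types. It had 2379, 1786, 1782 and 2757 CPM in restricted mutants, against 8691, 8788, 6220.3 and 5485 CPM in fed wild types and a mean of 713 CPM in fed mutants. The change from fed wild types was -1.75 ± 0.40 (SE, adjusted p = 0.00347), beside -3.36 in fed mutants, and restricted mutants were above fed ones by 1.61 (adjusted p = 0.013). Scd2, its near copy, was at -1.65 and -3.35, and reads may be shared between the pair. The drug-metabolizing Cyp2c29 was at -1.90 in restricted mutants and -3.39 in fed mutants, with a difference of 1.48 between them (adjusted p = 2.85e-05). On the high side, Slc13a5, a citrate importer, was at 2.79 and 4.42, Cib3, a calcium-binding protein, at 3.21 and 4.71, Tff3, a secreted trefoil peptide, at 3.18 and 4.59, and Ubd, a ubiquitin-like protein, at 2.28 and 3.76. All 4 were lower in restricted than in fed mutants (adjusted p 0.0054 to 0.0081) and higher than in fed wild types. The call of Cib3 between the mutants was lost without fed mutant replicate 2 (-1.09, adjusted p = 0.0682).

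Among 43 genes of fatty acid oxidation and other targets of PPARα, the receptor that switches the liver to burning fat, 21 fell and 5 rose in restricted mutants, with a median of -0.42. Scaling by total counts left 9 lower and 9 higher, so the count of falls depends on the scaling. Fabp1, the fatty acid-binding protein of hepatocytes, had 536, 500.1, 591 and 539 CPM in restricted mutants, against 5052, 3762, 4748 and 3299 CPM in fed wild types. The groups were far apart, with a change of -2.96 ± 0.17 (SE, adjusted p = 1.52e-11), beside -1.37 in fed mutants and -0.94 in restricted wild types. Acaa1b and Acaa1a, peroxisomal thiolases, were at -2.51 and -1.50 in restricted mutants and -2.10 and -1.14 in fed mutants. Cyp4a14, a fatty acid hydroxylase and PPARα target, went the other way: it averaged 1515 ± 445 CPM in restricted mutants and 673 ± 384 CPM in fed wild types (SD, n = 4 each), with 122 CPM in fed mutants. Every restricted mutant was above every fed wild type, but the change of 1.17 did not pass (adjusted p = 0.0808) but passed without fed wild-type replicate 4 (1.60, adjusted p = 0.0308) and with total-count scaling, whereas the change of -2.46 in fed mutants did (adjusted p = 0.00376).

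**Figure D3:**
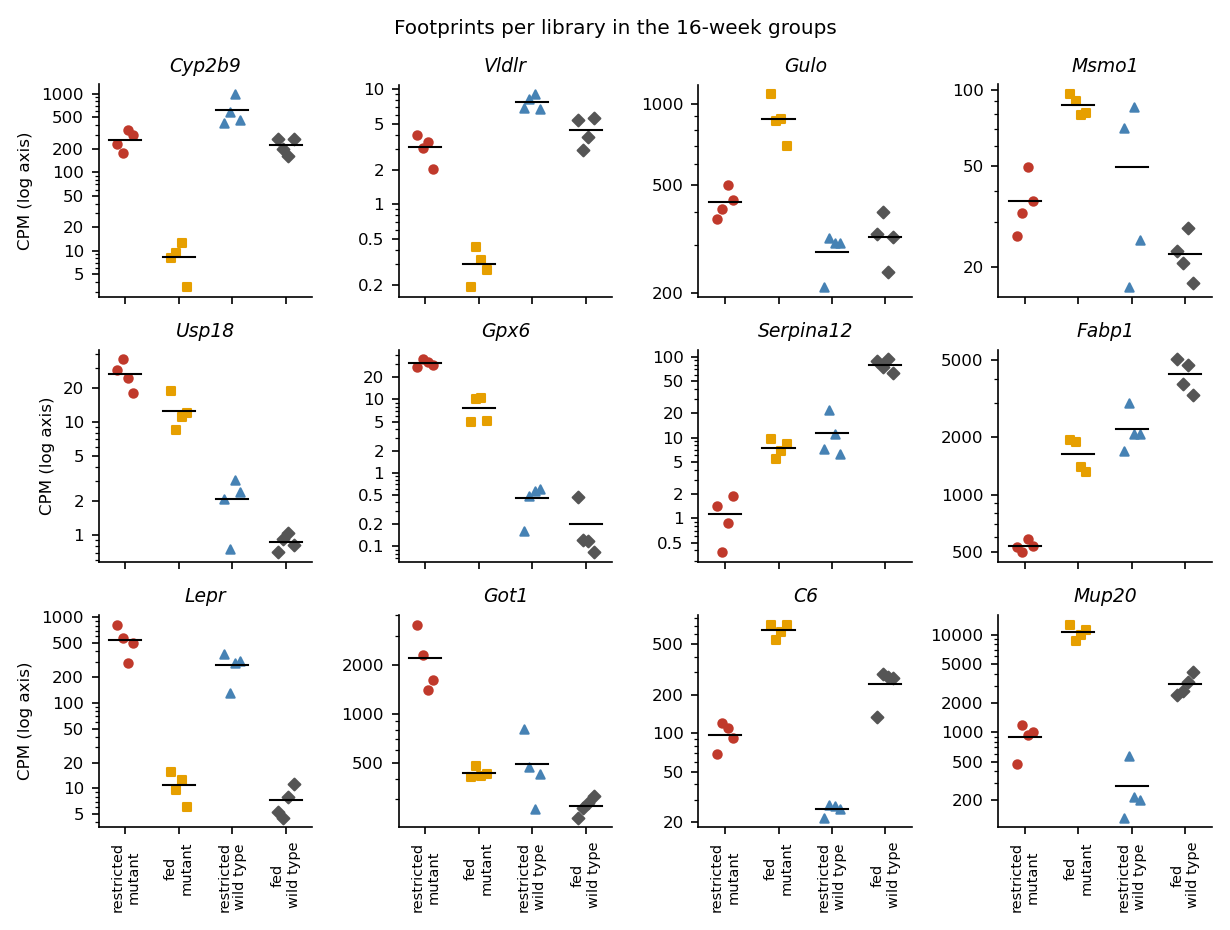
CPM on a log axis for 12 genes in the 4 groups aged 16 weeks, 1 point per library, with a line at each group's mean. The top row shows genes not called against fed wild types in restricted mutants and called in fed mutants, and the middle row genes called in the same direction in both. The bottom row shows Lepr and Got1, called in restricted mutants and not in fed mutants, and C6 and Mup20, low in restricted mutants and high in fed ones.

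Some genes lay on opposite sides of the fed wild-type level in restricted and in fed mutants. C6, of the membrane attack complex of complement, had 68.8, 120.0, 110.3 and 91.4 CPM in restricted mutants, against 135, 292, 277 and 271 CPM in fed wild types and a mean of 645 CPM in fed mutants. The restricted mutants were all lower than fed wild types, with a log2 change of -1.32 ± 0.19 (SE, adjusted p = 1.28e-05), whereas fed mutants were higher by 1.40 (adjusted p = 1.50e-05). Of 25 complement genes tested, 14 fell and 2 rose in restricted mutants, with a median of -0.43, and 9 rose and none fell in fed mutants. C8a was at -2.33, C4b at -1.67 and the lectin Mbl1 at -2.01 in restricted mutants, beside 0.40, 0.086 and -0.46 in fed mutants. None of these passed in fed mutants, though Mbl1 did with only the 8 libraries compared, so they were not shown to lie on opposite sides. Cfp, which encodes properdin and stabilizes the alternative pathway, was up in both, by 1.18 in restricted mutants (adjusted p = 5.51e-05) and 1.02 in fed mutants (adjusted p = 0.000783).

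Mup20, the pheromone protein darcin, had 469, 1186, 939.7 and 1013 CPM in restricted mutants, against 2381, 2657, 3260.0 and 4116 CPM in fed wild types and a mean of 10610.1 CPM in fed mutants. Its change was -1.78 ± 0.35 (SE, adjusted p = 0.000939) in restricted mutants and 1.77 in fed mutants. Cyp7b1, an oxysterol hydroxylase of bile acid synthesis, was at -1.22 and 1.71, and Nudt7, a hydrolase of coenzyme A in peroxisomes, at -2.13 and 0.70, where the fed mutant call was lost in 5 of the 8 fits that left out a library. In the other direction, Etnppl, which breaks down phosphoethanolamine, had 698, 439, 365 and 228 CPM in restricted mutants, against 174, 104, 144 and 145 CPM in fed wild types. It was higher in all restricted mutants, by 1.61 (adjusted p = 0.00136), and in fed mutants its change was -1.18 (adjusted p = 0.0262), a call lost in 6 of the 8 fits that left out a library and with total counts or no filter.

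Large rises in restricted mutants were in a flavin monooxygenase, sulfotransferases and the leptin receptor. Fmo6, the flavin monooxygenase, had 2012, 1708, 2410 and 967 raw counts in restricted mutants, against 6, 6, 1 and 5 in fed wild types, and rose by 8.40 ± 0.55 on the log2 scale (SE, adjusted p = 1.52e-11), beside 0.92 in fed mutants, where it was not called, and 7.62 in restricted wild types. The leptin receptor Lepr had 823, 570.1, 293 and 503 CPM in restricted mutants and 5.33, 4.53, 7.92 and 11.1 CPM in fed wild types, a change of 6.26 ± 0.38 (SE, adjusted p = 7.06e-09), and 5.27 in restricted wild types. The estrogen sulfotransferase Sult1e1 had 108, 77.6, 45.6 and 96.1 CPM in restricted mutants and 0.0783, 0.551, 0.120 and 0.827 CPM in fed wild types, and it rose by 7.96, beside 4.10 in fed mutants and 3.07 in restricted wild types. Akr1b7, an aldose reductase, averaged 21.7 ± 15.1 CPM in restricted mutants and 0.575 ± 0.208 CPM in fed wild types (SD, n = 4 each), and its change of 5.25 was 4.66 without restricted mutant replicate 2. The bile acid sulfotransferase Sult2a1 had 83, 118, 268 and 165 raw counts in restricted mutants and 1, 2, 3 and 0 in fed wild types, too few in fed wild types for a fold.

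Sex-biased genes of the liver, which follow the pulses of growth hormone, moved as 2 groups. Of 33 male-biased genes 26 fell and none rose in restricted mutants, with a median of -1.78, and of 33 female-biased genes 16 rose and 3 fell, with a median of 0.89. In fed mutants 9 male-biased genes rose and 2 fell, and 4 female-biased genes rose and 16 fell. Restricted wild types moved as restricted mutants did: 26 male-biased genes fell and none rose (median -2.11), and 17 female-biased genes rose and 1 fell (median 1.04). Elovl3, a male-biased elongase, had 0.661, 1.18, 0.613 and 0.417 CPM in restricted mutants, against 44.1, 137, 93.6 and 186 CPM in fed wild types. It was the largest fall named here, at -7.28 ± 0.67 (SE, adjusted p = 5.07e-07), and was at -0.28 in fed mutants. Cyp4a12a, a male-specific arachidonic acid hydroxylase, was at -3.80 in restricted mutants and -1.21 in fed mutants. All 22 major urinary proteins fell in restricted mutants, with a median of -4.35, and all 22 in restricted wild types, with a median of -3.88. Mup20 is in this list and in the male-biased one, and Elovl3 is in the male-biased and fatty acid synthesis lists. Cyp2b9, Cyp2b10 and Cyp2b13 are in the female-biased and drug metabolism lists. The counts of the lists are therefore not separate. Mup14 and Mup8 fell most in restricted mutants, to 17.8 ± 5.71 and 19.9 ± 4.43 CPM, against 1687 ± 828 and 1667 ± 805 CPM in fed wild types (SD, n = 4 each). The Mup genes took 0.55 to 0.768% of all counts in restricted mutants and 4.48 to 9.07% in fed wild types, and their near-identical sequences make single members uncertain.

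The growth hormone axis itself gave 3 higher and 3 lower of 20 genes, near the 14.1% and 14.3% of all genes. Ghr, the growth hormone receptor, had 55.4, 49.9, 62.3 and 55.8 CPM in restricted mutants, against 185, 185, 184 and 163 CPM in fed wild types. All restricted mutants were lower, with a log2 change of -1.68 ± 0.16 (SE, adjusted p = 5.80e-08), beside -0.61 in fed mutants and -0.88 in restricted wild types. Igfbp2, which binds insulin-like growth factors, rose by 2.50 ± 0.27 (SE, adjusted p = 9.41e-07), beside 1.39 and 2.74. Igf1, the hormone that the receptor drives, had 261, 276, 210.4 and 233 CPM in restricted mutants and 257, 328, 297 and 319.7 CPM in fed wild types, with overlap. Its change of -0.29 did not pass (adjusted p = 0.153; interval -0.60 to 0.019).

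Amino acid breakdown rose in restricted mutants more often than it fell: 18 of 38 genes of the urea cycle and amino acid breakdown were higher and 6 lower, with a median of 0.42. Fed mutants had 3 higher and 4 lower, and restricted wild types 3 higher and 9 lower. Got1, the cytosolic aspartate aminotransferase, had 3522, 2294, 1406 and 1615 CPM in restricted mutants, against 232, 265, 286 and 315 CPM in fed wild types. No libraries overlapped, and the change was 3.01 ± 0.29 (SE, adjusted p = 5.03e-07), beside 0.66 in fed mutants and 0.84 in restricted wild types, neither of which passed. The fed mutant change of Got1 did pass with only the 8 libraries compared. Cth, which makes cysteine and hydrogen sulfide, had 825, 548, 475 and 385 CPM in restricted mutants and 122, 149, 140.1 and 182 CPM in fed wild types, a change of 1.91 (adjusted p = 5.65e-06). Slc25a15, the mitochondrial ornithine carrier, rose by 1.52, and Cps1, the first enzyme of the urea cycle, by 0.99, beside 0.56 and 0.39 in fed mutants. Slc25a15 passed in fed mutants (adjusted p = 0.0136), a call lost in 2 of the 8 fits that left out a library, and Cps1 passed there only with total counts. Haao, of tryptophan breakdown, fell by 1.11 (adjusted p = 7.61e-07), beside -0.66 in fed mutants (adjusted p = 0.00132).

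Cytosolic ribosomal proteins rose together. Of 81 tested, 57 were higher and 2 lower in restricted mutants, with a median of 0.97, against 1 higher and none lower in fed mutants and 63 higher and none lower in restricted wild types. The summed level was 14065, 12483, 11136 and 13882 CPM in restricted mutants and 7625, 6688, 5933 and 5992 CPM in fed wild types, with no overlap. Rps24, of the small subunit, had 177, 158, 150.0 and 204 CPM in restricted mutants and 63.7, 64.5, 64.8 and 57.5 CPM in fed wild types, a change of 1.46 ± 0.29 (SE, adjusted p = 0.00101). Rpl21 rose by 1.28 and Rpl22l1, a paralog of Rpl22, by 1.91, whereas Rpl36al fell by 0.55. Rpl22l1 was the 1 called in fed mutants, at 1.01 (adjusted p = 0.00584), with Rpl21 at 0.018 and Rpl36al at -0.12 there. Translation factors had 15 higher and 1 lower of 39, with a median of 0.44, and 26 higher with total counts. Eif4a1, the RNA helicase of initiation, rose by 0.77 and Eif3a, the largest subunit of eIF3, by 0.81. Both were also called in fed mutants, at 0.46 and 0.46, calls lost in 1 and 7 of the 8 fits that left out a library. The ribosomal protein count was 38 without fed wild-type replicate 3.

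**Figure D4:**
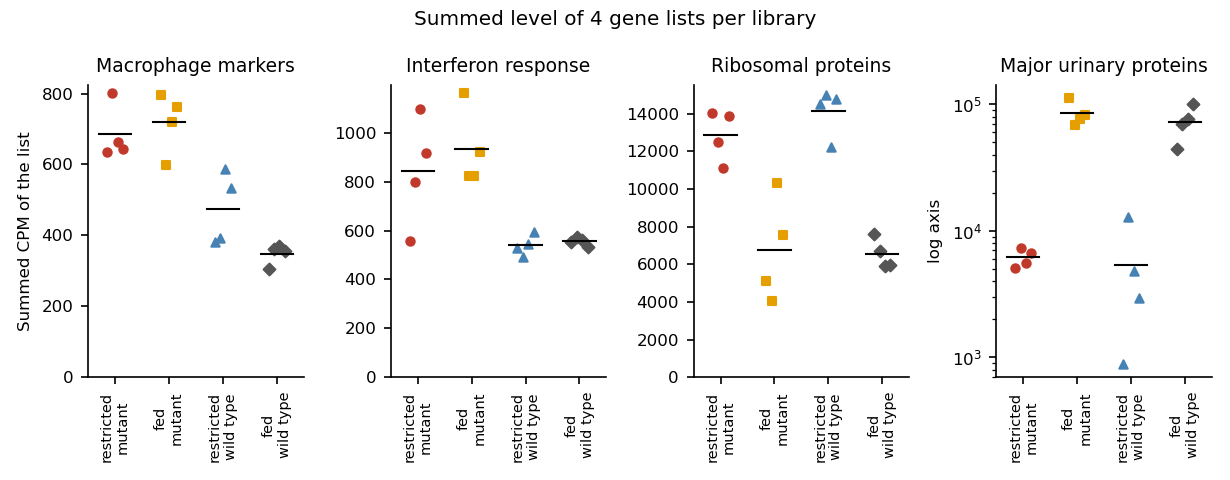
Summed CPM of 4 gene lists per library in the 4 groups aged 16 weeks, with a line at each mean; the right panel has a log axis. Macrophage markers are high in both mutant groups, interferon genes in 3 of 4 restricted mutants, ribosomal proteins in both restricted groups, and major urinary proteins are low in both restricted groups.

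Of 54 nuclear-encoded subunits of oxidative phosphorylation 14 rose and 2 fell in restricted mutants, and all 54 intervals lay within 2-fold of fed wild types. All 54 also did in fed mutants, where 4 fell and none rose, and in restricted wild types, where 6 rose and none fell. The rises in restricted mutants numbered 6 without fed wild-type replicate 2, and 29 with total-count scaling. Atp5b, the catalytic subunit of ATP synthase, rose by 0.55 (adjusted p = 0.000574). None of the 13 mitochondrially encoded genes was called by edgeR or by DESeq2, but 2 were higher with the replicate block and 1 with total-count scaling. In the fit without a block 2 had an unadjusted p under 0.05 in edgeR, which 39.7% of all genes had. Their summed level was 11398, 4930.1, 2781 and 2679 CPM in restricted mutants and 4306, 4375, 2712 and 1178 CPM in fed wild types, with replicate 1 of the restricted mutants apart from the rest. Some chaperone genes fell. Of 25 genes of endoplasmic reticulum folding 5 fell (20%, against 14.3% of all genes) and none rose, with a median of -0.74, and of 19 heat shock genes 7 fell and 1 rose, with a median of -0.59. In fed mutants edgeR called no gene of either list, with 3 and 2 lower at an unadjusted p under 0.05, which 24.3% of all genes had in either direction, and DESeq2 called 1, of the endoplasmic reticulum list. The endoplasmic reticulum falls numbered 10 with DESeq2 and 12 with only the 8 libraries compared. The heat shock falls numbered 2 without restricted mutant replicate 2 and 2 with total-count scaling. Herpud1, which takes part in degradation of misfolded proteins, had 181, 197, 104 and 88.8 CPM in restricted mutants, against 614, 934, 501 and 547 CPM in fed wild types, and fell by 2.19 (adjusted p = 1.83e-05).

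Of the NRF2 targets, 8 of 25 rose and 5 fell in restricted mutants, where 14.1% and 14.3% of all genes did. Hmox1, heme oxygenase, had 38.5, 46.6, 42.7 and 47.4 CPM in restricted mutants and 12.5, 11.2, 12.9 and 13.1 CPM in fed wild types and rose by 1.82 (adjusted p = 8.50e-06), and Nqo1, a quinone reductase, rose by 1.67, whereas Gclm, of glutathione synthesis, fell by 0.63. In fed mutants Nqo1 was at 1.05 (adjusted p = 0.0105), while Hmox1 at 0.59 and Gclm at -0.30 did not pass. Hmox1 passed there with only the 8 libraries compared. Of 36 proliferation genes 8 fell and 2 rose, against 14.3% lower and 14.1% higher over all genes. Restricted wild types had 18 lower and none higher, and fed mutants 2 higher and none lower. The summed level overlapped, at 174 to 254 CPM in restricted mutants and 161 to 339 CPM in fed wild types. E2f8, a repressor of the cycle in polyploid cells, was at -3.31 and Mcm5, of the replicative helicase, at -2.21. In fed mutants E2f8 at -1.22 and Mcm5 at 0.33 did not pass, though E2f8 did with only the 8 libraries compared. Drug metabolism had 12 higher and 10 lower of 41, where 14.1% and 14.3% of all genes were. In fed mutants 5 were higher and 14 lower, where 5.69% and 5.04% of all genes were. Slco1a4, an organic anion importer, had 406, 369, 308 and 313 CPM in restricted mutants and 77.3, 72.0, 70.6 and 93.4 CPM in fed wild types and rose by 2.16 (adjusted p = 3.48e-10), and Aox3, an aldehyde oxidase, was at -1.87. The Wnt target Axin2 of pericentral hepatocytes rose by 2.56 (adjusted p = 1.05e-05), beside 1.81 in fed mutants (adjusted p = 0.00168). Of 24 pericentral genes 7 rose and 4 fell in restricted mutants, beside 8 and 3 of 19 periportal ones.

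**Figure D5:**
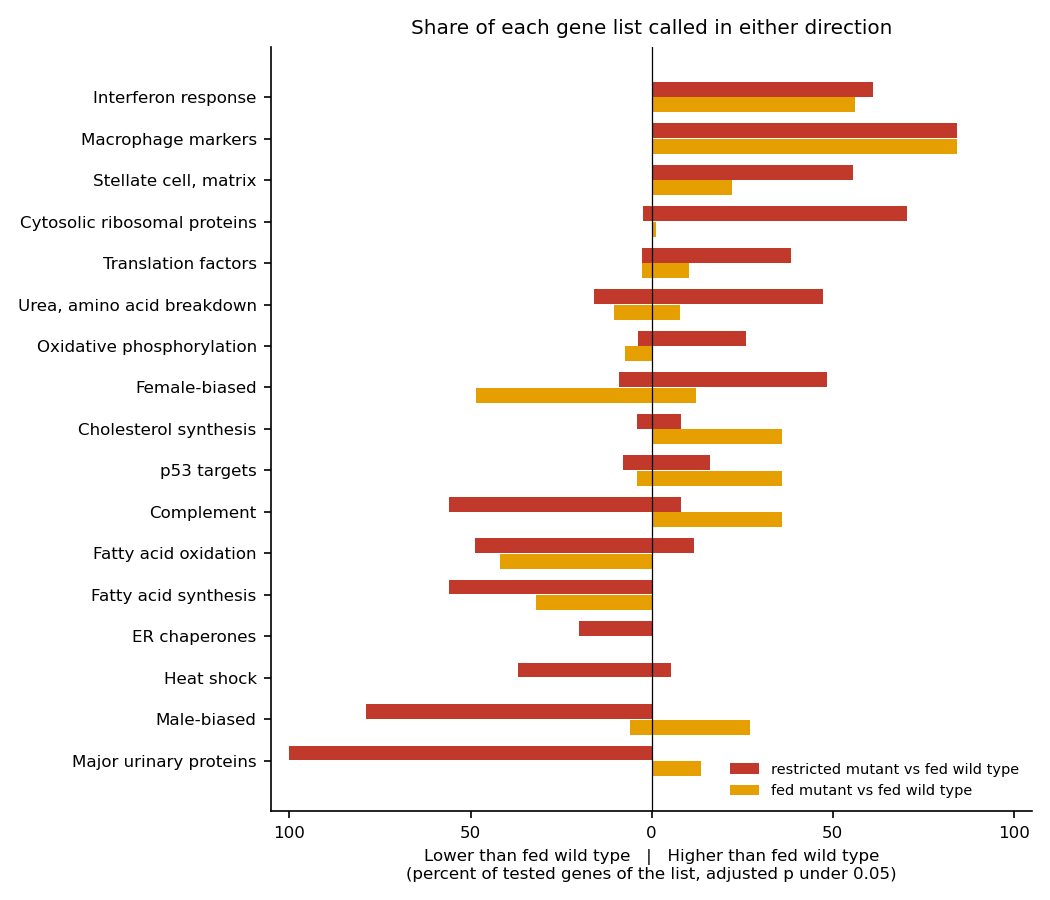
Percent of the tested genes of 17 lists that were lower (left) or higher (right) than in fed wild types, for restricted mutants (red) and fed mutants (orange), at an adjusted p under 0.05. Over all genes 14.3% were lower and 14.1% higher in restricted mutants, and 5.04% lower and 5.69% higher in fed mutants. Of 41 interferon genes 25 were higher in restricted mutants and 23 in fed mutants, and of 19 macrophage markers 16 in each. Of 25 complement genes 2 were higher in restricted mutants and 9 in fed mutants.

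Markers of other cells moved with these groups, and their part in the results above was not tested. Hepatocyte markers had 3 higher and 5 lower of 15, where 14.1% and 14.3% of all genes were, and their summed level overlapped between the groups. Alb was at 0.47 (adjusted p = 0.0583), and was called with total counts, the 1 CPM filter, only the 8 libraries compared or DESeq2. Albumin took 13.6 to 17.4% of all counts in restricted mutants and 9.18 to 10.7% in fed wild types. Of 18 stellate cell and matrix genes 10 rose and none fell, beside 4 higher and none lower in fed mutants and 7 higher and none lower in restricted wild types. Dcn, a small proteoglycan, was up by 1.25 (adjusted p = 1.37e-05), and by 0.78 in fed mutants (adjusted p = 0.00518). The summed level of 859.6, 1077, 1056 and 832 CPM in restricted mutants did not overlap with 440.0, 559.7, 512 and 641 CPM in fed wild types. Of 14 endothelial genes 3 rose and none fell, where 14.1% of all genes rose. Their median was 0.11, and 11 had an interval within 2-fold. Lyve1, a marker of sinusoids, rose most of the list, by 1.87. S100a9, a protein of neutrophils, had 39, 67, 71 and 49 raw counts in restricted mutants and 2, 1, 12 and 1 in fed wild types. Camp and Mpo, which mark immature neutrophils, had 0 or 1 count in all 8 libraries. Of the same list, Ngp had at most 1 count in restricted mutants and 2 in fed wild types, Elane at most 4 and 2, and Ltf at most 8 and 2. Of 10 neutrophil genes 3 were tested, of which 2 rose and 1, Ly6g, fell by 2.09 (adjusted p = 0.00171), with 9 to 25 counts in restricted mutants and 46 to 86 in fed wild types. Alas2, of erythroid heme synthesis, was lower in all restricted mutants, at 8.27, 8.74, 9.12 and 9.24 CPM against 25.5, 21.0, 112 and 127 CPM in fed wild types. Restricted mutant replicate 3 stood apart in bile duct genes: Krt19 had 1.42, 2.03, 32.2 and 1.81 CPM in restricted mutants and 0.313, 0.429, 0.440 and 1.24 CPM in fed wild types, and its call was lost without that library (adjusted p = 0.0765). The summed level of the bile duct list was 25.8, 25.6, 81.9 and 21.9 CPM in restricted mutants and 21.6, 20.7, 23.7 and 23.3 CPM in fed wild types. Of 13 plasma and B cell genes 5 were tested and 2 rose, and of 13 T and natural killer cell genes 1 was tested and it was not called.

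Long genes can be hit more often by transcription-blocking damage, and the series asks about ageing, so gene length was examined. Protein-coding genes were put into 5 equal groups by length. In each library the shortest genes' mean log2 CPM was subtracted from the longest genes' mean, and the result averaged -0.574 ± 0.041 in restricted mutants and -0.519 ± 0.060 in fed wild types (SD, n = 4 each), a difference of -0.055. An exact 2-sided permutation test over the 70 assignments gave p = 0.2, where 0.0286 is the smallest it can give. In the longest group, of 2395 genes, 441 fell and 285 rose in restricted mutants, where 14.3% and 14.1% of all genes did. In the shortest, of 2396, 401 fell and 340 rose. The longest group had 237 lower and 90 higher in fed mutants (5.04% and 5.69% of all genes), and 197 lower and 68 higher in restricted wild types (6.71% and 5.44%). The length difference from the same wild types was -0.15 in fed mutants (exact permutation p = 0.0857) and -0.16 in restricted wild types (exact permutation p = 0.229). Length here is the length listed in the deposited table.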

How the data were processed

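Ribosome-protected fragments of 24 mouse livers were sequenced, and 8 libraries were compared here. The deposited table holds raw read counts per gene, made by the authors on GRCm38.p6, per the submitters' processing notes, which also name Trimmomatic 0.39, STAR 2.7.0f and 2.7.8a, featureCounts of Subread 1.6.4, cutadapt 3.4 and Bowtie2 2.4.2. Those notes do not name the annotation release, the use of strand or how reads that fit several genes were counted, so genes with near copies are uncertain. A deposited table of open reading frames and the matched mRNA libraries were not used here.

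Counts were filtered with filterByExpr, scaled with TMM and fitted in edgeR 4.0.16 (R 4.3.3, limma 3.58.1) with 1 term for each of the 6 groups over all 24 libraries, a robust quasi-likelihood fit and 18 residual degrees of freedom. The biological coefficient of variation was 24.2%. CPM were computed here from the counts. A 95% interval used the t quantile and the standard error of that fit. Counts were simulated for the 12211 genes of the comparison of restricted mutants with fed wild types. A small share of genes, with a mean of at least 1 CPM, was changed, as many up as down. The simulated spread was the same in every group. The fit recovered 100% and 98% of genes changed by -2 and 2 on the log2 scale, 82% at -1 and 76% at 1. There were 14 false calls, and 94.9% of intervals held the true value. These rates do not cover changed genes of lower counts or groups of unequal spread.

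The genes named were the 10 largest rises and falls in restricted mutants and in fed mutants against fed wild types (adjusted p under 0.05, at least 5 CPM in the higher group, no overlap), up to 4 members of each of 43 lists by adjusted p in restricted mutants and 3 by size of change in fed mutants, and 11 fixed genes. Some genes the rule chose are not reported here. Oas1g, Oas3 and Rsad2 were added after their values were seen. The members and lists were chosen with earlier results of these data known. The length comparison used log2 CPM with a prior count of 2 and an exact permutation test over libraries. Alternatives were RLE size factors, total counts, no filter, at least 1 CPM in 4 libraries, only the 8 libraries of a comparison, a replicate block, each library left out, and DESeq2 1.42.0. Python 3.11.15 with numpy 2.4.6, pandas 2.3.3, scipy 1.17.1 and matplotlib 3.10.9 made the summaries and figures. Promoters are from RefSeq. The 8 libraries of 13366558 to 26075881 counts limit what can be said of genes with few counts, for which intervals are wide.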

Additional observations from a re-analysis of the deposited data

Results flagged for a closer look

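A library was marked where, in a group of 4, the highest or lowest value stood further from the nearest than Dixon's 95% critical value allows for the group's range. This was examined for the genes named above and for summed marker lists, in restricted mutants and in fed wild types, 222 groups in all, and 18 were marked. Chance marks about 1 in 20 groups. In restricted mutants, replicate 1 was high for Cyp2b10 at 75.7 CPM, against 38.8 to 45.0 in the others, and for Ddb2 at 12.1 CPM, against 2.14 to 2.27. Replicate 2 was low for Cyp2b19 at 7.04 CPM, against 9.78 to 10.0, and high for the summed macrophage markers at 801 CPM, against 636 to 663, and the summed neutrophil markers at 6.29 CPM, against 4.72 to 4.93. Replicate 3 was high for Krt19 at 32.2 CPM, against 1.42 to 2.03, and for the summed markers of bile duct at 81.9 CPM, against 21.9 to 25.8, of pancreatic acinar cells at 15.5 CPM, against 1.39 to 2.69, and of T and natural killer cells at 3.37 CPM, against 1.25 to 1.56.

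In fed wild types, replicate 1 was low for C6 at 135 CPM, against 271 to 292, and for Clec4f at 83.0 CPM, against 91.5 to 92.4, and high for Gpx6 at 0.470 CPM, against 0.0827 to 0.123. Replicate 3 was high for S100a9 at 0.480 CPM, against 0.0613 to 0.0827. Replicate 4 was high for Cyp2b19 at 10.6 CPM, against 6.70 to 7.32, and for Krt19 at 1.24 CPM, against 0.313 to 0.440. It was low for Ghr at 163 CPM, against 184 to 185, for Rps24 at 57.5 CPM, against 63.7 to 64.8, and for Sesn1 at 3.48 CPM, against 4.48 to 4.66.

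For 4 genes restriction moved every mutant library one way and every wild-type library the other, relative to fed mice of the same genotype. The log2 changes with restriction were 1.48 in mutants and -1.02 in wild types for Cyp2c29, 1.61 and -1.14 for Scd1, 1.70 and -1.19 for Scd2, and -0.78 and 3.18 for Sqle. The differences between the genotypes in these changes were not tested.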

How the results depend on the processing

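The 3462 genes that differed between restricted mutants and fed wild types numbered 3105 to 3799 over the other settings and tools and 2762 to 3194 when each library was left out, and genes within 2-fold numbered 6095 to 6773. With total counts the lower genes numbered 960 against 1744, and 72.2% of called genes were higher, against 49.6%. Leaving out a library gave 1327 to 1580 higher and 1397 to 1614 lower genes. With only the 8 libraries compared, fed mutants against fed wild types had 2195 genes, against 1310, and restricted against fed wild types 687, against 1483. These fits had fewer degrees of freedom and took the spread from the compared groups alone. Why the counts moved in opposite directions was not tested. Leaving out a library gave 813 to 1096 genes for fed mutants, 933 to 1467 between restricted and fed mutants, and 939 to 1866 for restricted wild types. The replicate numbers were not taken as pairing: deviations of same-numbered libraries correlated at 0.022, 0.069, 0.081 and -0.0074. The replicate block gave 3386 genes for restricted mutants against fed wild types, 1250 for fed mutants, 1335 between the mutants, 1398 for restricted wild types and 6577 within 2-fold, each within 1.5 times the count without it. The length difference was -0.0838 to -0.0382 without 1 library and -0.127 (exact permutation p = 0.0571) with 10 length groups. No value of the genes named above changed direction where it was called. For restricted mutants against fed wild types, 97 of 100 kept their side of the threshold under DESeq2, and 95 of 101 with only the 8 libraries. Total counts also moved counts of list genes: p53 targets had 6 higher, NRF2 targets 2 lower, amino acid breakdown 2 lower, complement 4 higher, pericentral genes 11 higher, periportal genes 1 lower and hepatocyte markers 5 higher. With only the 8 libraries p53 targets had 2 higher and the growth hormone axis 5. Low counts limit Ercc1, Fgf21, Sult2a1 and the neutrophil and T cell genes.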
